A study of Homo sapiens with 14 samples.

Results

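The comparison described here is between HL-60 cells differentiated for 6 days with DMSO and Nutridoma in low serum and HL-60 cells differentiated for 6 days with DMSO in full serum. HL-60 is a human promyelocytic leukemia line. It uses the 4 HL-60 day-6 libraries among the 14 libraries of the series, chosen by their titles and paired by replicate number. The DMSO group had 1.3% DMSO and 9% FBS in RPMI medium. In the DMSO+Nutridoma group the serum was lowered to 0.5% and 2% Nutridoma was added, with DMSO again at 1.3%. Both groups received DMSO, whereas the supplement and the lower serum changed together and cannot be told apart in these libraries. Each group had replicates 1 and 2, which the study's methods place on separate days, and the p values below rest on a spread between such cultures that is shared over both lines. Undifferentiated HL-60 cells in 9% FBS and the PLB-985 line, reported to be a subclone of HL-60 and here carrying an H2B-mCherry reporter, were grown under the same conditions and serve as reference points.

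DMSO stops HL-60 cells from dividing and turns on genes of the neutrophil, the phagocyte that follows formylated peptides to sites of infection and kills microbes with granule proteins and with the oxidants of the NADPH oxidase. Nutridoma-CS is a commercial serum replacement whose ingredients are proprietary. Myeloid cells sense bacterial products, cytokines and adhesion through kinases that end on NF-kB, on the serum response factor and on STAT proteins. NF-kB is held in the cytosol by inhibitors such as the product of NFKBIA, and when released it turns on chemokines, cytokines and its own inhibitors. HL-60 cells can also be driven toward monocytes, which carry CD14 and the receptor for macrophage colony-stimulating factor, CSF1R.

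Values are FPKM (fragments counted per transcript, scaled to transcript length and sequencing depth), scaled by the authors with 1 factor per library and called normalized FPKM below, and a pair of values names replicate 1 first. A log2 difference is DMSO+Nutridoma minus DMSO on log2(normalized FPKM + 1) from limma, a linear model fitted to each gene, and SE is its standard error. The added 1 makes the difference smaller than the ratio of the levels for genes with low values. The model was fitted to the 12 replicated libraries of both lines with the replicate number as a term. A row was tested if 2 or more of these libraries had 1 normalized FPKM or more, which left 13778 rows, and a gene is called higher or lower where its adjusted p (two-sided, Benjamini-Hochberg over all 13778 rows) is under 0.05. In this bulk RNA, fewer cells that express a gene cannot be told apart from less of its RNA per cell.

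ITGAM, which encodes the integrin chain CD11b, and FPR1, the formyl peptide receptor, were high in all 4 libraries, whereas CEACAM8, a marker of maturing granulocytes, was listed at no more than 0.0509. The 4 libraries had total FPKM of 739094 to 979180 and 20610 to 22830 rows above 0. The deposited tables hold no read counts. Steps between the lowest FPKM values put the depths of the 12 replicated libraries at 0.878 to 1.26 times that of HL-60 DMSO replicate 1, but only 17.05 to 23.79% of the low rows lay on the step used, so these are rough figures. The share of FPKM from mitochondrially encoded genes followed the replicate number (7.19 and 7.66% in replicate 1 against 14.2 and 12.6% in replicate 2, DMSO first). The replicates of DMSO+Nutridoma differed more than those of other groups. After the mean replicate difference of the other groups was taken away, that of DMSO+Nutridoma had an SD of 0.583 over rows, that of undifferentiated HL-60 cells 0.545 and those of the other 4 groups 0.393 to 0.451. The effect is therefore given in each pair.

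With DMSO+Nutridoma, 1358 rows (9.86% of those tested) were higher and 911 (6.61%) were lower. All 2269 moved in the same direction in both pairs, but the call itself favors this, because pairs that disagree widen the spread used. All 145 rows called in PLB-985 cells did so as well. On the FPKM before the authors' scaling the balance turned, with 955 higher and 1243 lower, so the split between directions depends on the scaling. On the 6 HL-60 libraries alone limma called 96 and 5, and on the 4 HL-60 day-6 libraries alone, with 1 residual degree of freedom, 0 and 0 (2717 rows at an unadjusted p under 0.05), so most calls rest on the spread shared with the PLB-985 libraries. Without the replicate term the counts were 575 and 264. They fell to 555 and 216 without DMSO+Nutridoma replicate 2, to 399 and 204 without DMSO replicate 1 and to 218 and 56 without DMSO replicate 2. The lower count rose to 1470 without DMSO+Nutridoma replicate 1. The lower count was also 561 to 576 without any 1 of the 4 PLB-985 day-6 libraries. With each of the 12 libraries left out in turn, 202 rows were higher and 49 lower in every fit.

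The second pair differed more than the first. The spread of the difference over all rows had an SD of 0.646 in pair 1 and 0.824 in pair 2. Rows called higher had a median difference of 0.77 in pair 1 and 1.04 in pair 2, and 1007 of 1358 were larger in pair 2. Rows called lower had medians of −0.62 and −1.03, and 785 of 911 were larger in size in pair 2. At least 2-fold changes on the same scale were 654 higher (4.75%) and 296 lower (2.15%) in pair 1, against 1019 (7.4%) and 847 (6.15%) in pair 2. Both pairs reached 2-fold for 436 higher rows (3.16%) and 160 lower rows (1.16%), and 20 rows (0.145%) did so in opposite directions. At 3-fold the counts were 316 higher (2.29%) and 120 lower (0.871%) in pair 1, 489 (3.55%) and 272 (1.97%) in pair 2, 199 (1.44%) and 33 (0.24%) in both, and 9 (0.0653%) in opposite directions. Across rows, which are not independent replicates, the differences of the pairs correlated with a Pearson's r of 0.61 and a Spearman's rho of 0.62.

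**Figure D1:**
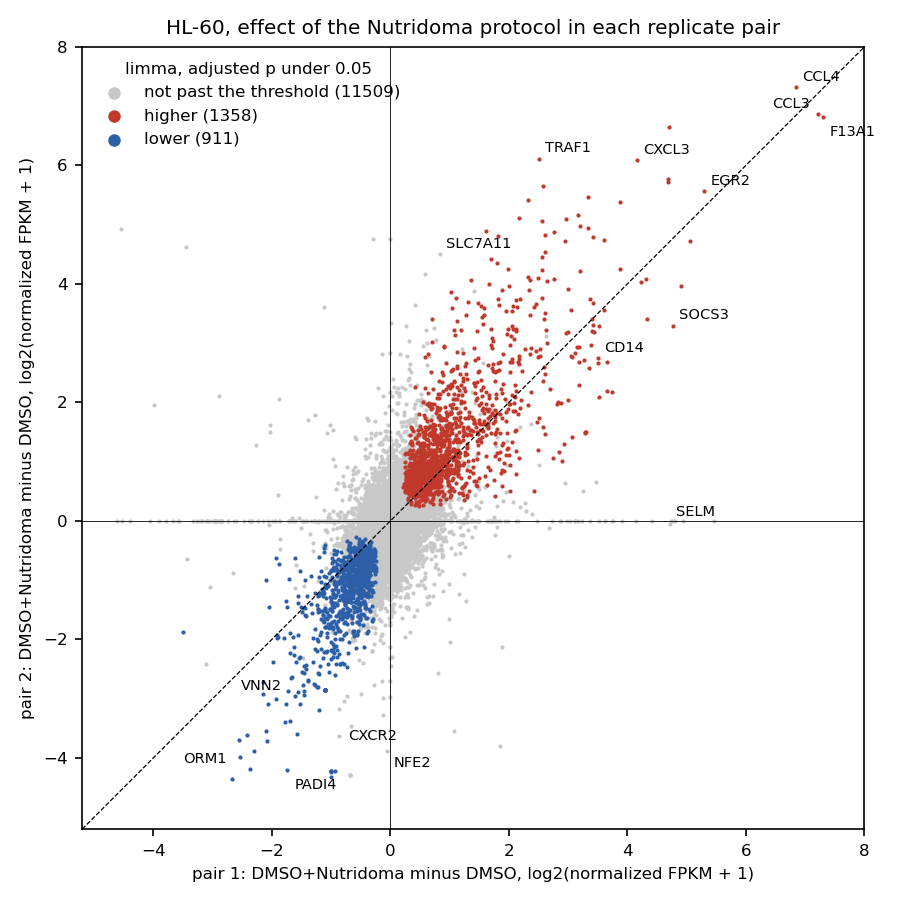
Each point is 1 of 13778 rows, with the difference between DMSO+Nutridoma and DMSO on log2(normalized FPKM + 1) in pair 1 on the horizontal axis and in pair 2 on the vertical axis; red marks the 1358 rows called higher, blue the 911 called lower and grey the 11509 others, and the dashed line is equality. Most red points lie above the line and most blue points below it, and F13A1, CCL3, CCL4 and EGR2 lie near it at the upper right.

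Promoter sequence is shown for some of the genes called higher, from the chemokines, NF-kB inhibitors, EGR genes and IFITM genes. Each window shown holds a match to a motif named below, so these windows are examples and not typical of the increases. The windows run from 250 bases before to 50 bases after the start of the gene in RefSeq on GRCh38.p14, printed 5′ to 3′ on the gene's strand, and 9267 of the 13778 tested rows had one. Capitals mark matches on either strand to an NF-kB element (GGG, any 2 bases, TTTCC) in CXCL2 (chr4:74099146-74099445, minus strand), CXCL3 (chr4:74038640-74038939, minus strand) and NFKBIA (chr14:35404700-35404999, minus strand), a pair of CArG boxes, the element bound by the serum response factor, in EGR1 (chr5:138465229-138465528, plus strand), and interferon elements (GAAA, any 2 bases, GAAA) in IFITM1 (chr11:313790-314089, plus strand).
CXCL2: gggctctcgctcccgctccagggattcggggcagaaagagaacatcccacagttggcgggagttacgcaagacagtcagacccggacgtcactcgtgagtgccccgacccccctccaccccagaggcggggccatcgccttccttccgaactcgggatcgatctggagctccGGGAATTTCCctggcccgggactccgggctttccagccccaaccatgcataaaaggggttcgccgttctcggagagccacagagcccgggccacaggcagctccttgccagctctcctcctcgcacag
CXCL3: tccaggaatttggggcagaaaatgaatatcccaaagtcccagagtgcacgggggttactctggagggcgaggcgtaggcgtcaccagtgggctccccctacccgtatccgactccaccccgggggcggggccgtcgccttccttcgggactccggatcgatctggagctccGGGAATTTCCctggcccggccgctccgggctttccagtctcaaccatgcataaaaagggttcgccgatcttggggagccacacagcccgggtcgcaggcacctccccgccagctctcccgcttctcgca
NFKBIA: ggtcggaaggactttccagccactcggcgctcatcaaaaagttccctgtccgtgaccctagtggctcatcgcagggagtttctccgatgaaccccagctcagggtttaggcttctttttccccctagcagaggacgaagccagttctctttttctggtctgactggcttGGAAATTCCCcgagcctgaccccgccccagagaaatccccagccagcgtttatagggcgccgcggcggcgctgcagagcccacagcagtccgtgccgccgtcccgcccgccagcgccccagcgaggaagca
EGR1: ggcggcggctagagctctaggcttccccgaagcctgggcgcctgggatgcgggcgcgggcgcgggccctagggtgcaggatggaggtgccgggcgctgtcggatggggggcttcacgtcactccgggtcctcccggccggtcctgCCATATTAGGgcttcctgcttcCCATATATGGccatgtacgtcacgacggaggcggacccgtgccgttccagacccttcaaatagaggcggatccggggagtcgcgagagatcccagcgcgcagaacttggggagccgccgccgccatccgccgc
IFITM1: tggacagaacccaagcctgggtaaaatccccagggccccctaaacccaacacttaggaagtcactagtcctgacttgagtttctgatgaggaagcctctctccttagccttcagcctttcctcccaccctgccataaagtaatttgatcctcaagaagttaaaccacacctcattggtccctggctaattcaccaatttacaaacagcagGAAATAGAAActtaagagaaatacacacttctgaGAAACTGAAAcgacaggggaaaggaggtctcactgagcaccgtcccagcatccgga

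CXCL2 and CXCL3 hold the same run, GGGAATTTCC, with its first base at −78 and −79 from the start, and NFKBIA holds GGAAATTCCC at −81. SLAMF8 has GGGACTTTCC at −76. The NF-kB element was in 4.47% of the windows of genes called higher (47 of 1052), in 0.957% of those called lower (6 of 627), in 2.3% of those of all tested rows and in 1.92% of all 27305 windows. Among the 20 NF-kB and cytokine genes with a window it was in 8, and among the 12 windows of the 15 largest increases in 2. This motif and the CArG box were searched after the values had been seen. The CArG box was in 1.33% of windows of higher genes, 1.01% of tested rows and 1.29% of all windows. Among the 18 windows of immediate early genes it was in 1, that of EGR1. Elements for STAT proteins (TTCNNNGAA) were in 7.6% of windows of higher genes, 4.47% of lower genes, 6.36% of tested rows and 7.88% of all windows. Interferon elements were in 3.42, 2.07, 2.91 and 3.65% in the same order, so the shares of the higher genes lay above those of the tested rows and below those of all windows. Sterol elements (TCACNCCAC) were in 0.951% of windows of higher genes, 0.993% of tested rows and 1.15% of all windows. A match is only a description of these letters.

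Chemokines, cytokines and regulators of NF-kB were higher for most of the tested genes. Of 24 tested genes of this kind, 21 were higher (87.5%, against 9.86% of all rows) and 3 (IL1A, NFKB2 and RELB) did not pass. The median log2 difference was 3.14 against 0.02 over all rows. The median was 2.55 in pair 1 and 3.75 in pair 2. Of these, 7 (CCL20, CCL22, CXCL2, CXCL3, EBI3, NFKBIZ and PTGS2) met the filter on low values only through the DMSO+Nutridoma libraries and could pass it only by being high there. Of the other 17, 14 were higher. The count of 21 was 3 on the HL-60 libraries alone and 14 without the replicate term. It fell to 12 without DMSO+Nutridoma replicate 2, to 11 without DMSO replicate 1 and to 9 without DMSO replicate 2, and CCL3, CCL5, CCL22, CXCL2, CXCL3, EBI3, NFKBIZ, PTGS2 and SOD2 passed with any 1 library left out.

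CXCL8, the main neutrophil chemoattractant of human macrophages, was at 45.5 and 47.2 normalized FPKM with DMSO and at 498 and 1339.8 with DMSO+Nutridoma, a log2 difference of 4.11 (SE 0.67, adjusted p = 0.0088). CXCL2, a ligand of the same receptor, was at 0.0476 and 0.122 against 8.61 and 34.5 (4.09, adjusted p = 0.0018). CXCL3, its neighbor on chromosome 4, was at 0 and 0.0261 against 17 and 69.1 (5.13, adjusted p = 0.00087). CXCL2 and CXCL3 were at most 0.122 in the undifferentiated and DMSO libraries. The groups of all 3 genes did not overlap, as held for 26.4% of all rows in the higher direction. CCL3, a ligand of CCR1, was at 1.14 and 6.9 with DMSO and at 319 and 920.1 with DMSO+Nutridoma, a log2 difference of 7.05 (SE 0.59, adjusted p = 0.00064). CCL4 was at 1.87 and 9.99 against 329 and 1761, a log2 difference of 7.09 (SE 1.16, adjusted p = 0.0088). CCL3, CCL4 and CCL4L2 have near-identical copies among which the counting may split reads, so the share of each gene is uncertain. For each of these chemokines replicate 2 with DMSO+Nutridoma was the highest library. CXCL8 lost the call without DMSO replicate 2 or DMSO+Nutridoma replicate 2 (adjusted p = 0.062 to 0.091). CCL4 lost the call without DMSO replicate 1, DMSO replicate 2 or DMSO+Nutridoma replicate 2 (adjusted p = 0.062 to 0.063).

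IL1B, the secreted cytokine of the inflammasome, was at 27.6 and 51 with DMSO and at 144 and 775 with DMSO+Nutridoma, a log2 difference of 3.12 (SE 0.47, adjusted p = 0.0064). TNF was at 32.4 and 66.9 against 173 and 307 (2.28, adjusted p = 0.048). EBI3, a subunit of interleukin 27, was at 0.0177 and 0.858 against 25.1 and 101 (5.23, adjusted p = 0.00085). Regulators of NF-kB rose as well. NFKBIA was at 62 and 91 with DMSO and at 659 and 723 with DMSO+Nutridoma, a log2 difference of 3.18 (SE 0.63, adjusted p = 0.017). TNFAIP3, a ubiquitin-editing enzyme that shuts off NF-kB, was at 8.91 and 12 against 39.5 and 113 (2.58, adjusted p = 0.038). NFKBIZ, a nuclear inhibitor family member, was at 0.664 and 1.55 against 10.6 and 8.95 (2.39, adjusted p = 0.00075). Among effector genes, SOD2, the mitochondrial superoxide dismutase, was at 63.2 and 84.7 against 498 and 2918 (4.02, adjusted p = 0.0035), and PTGS2, the inducible cyclooxygenase, at 0.58 and 0.667 against 18.9 and 9.67 (3.17, adjusted p = 0.00041). IL1B lost the call without DMSO replicate 2 (adjusted p = 0.068). TNF lost the call without any 1 of 10 of the 12 libraries (adjusted p = 0.07 to 0.22). NFKBIA lost the call without DMSO replicate 1, DMSO replicate 2 or DMSO+Nutridoma replicate 2 (adjusted p = 0.091 to 0.094). TNFAIP3 lost the call without any 1 of 8 of the 12 libraries (adjusted p = 0.051 to 0.23). In all these genes the groups did not overlap. Non-overlap without regard to size held for 26.4% of all rows in the higher direction.

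In PLB-985 cells 0 of the 24 genes passed in limma in either direction (2 were higher and 0 lower at an unadjusted p under 0.05), where 0.893% of all rows were higher and 0.16% lower. CCL3 was at 0.255 and 0.386 with DMSO and 0.167 and 0.414 with DMSO+Nutridoma there. The difference between the lines in the effect passed for CCL3 (7.08, SE 0.84, adjusted p = 0.016), CXCL3 (5.10, adjusted p = 0.025), EBI3 (4.38, adjusted p = 0.043), CXCL2 (3.94, adjusted p = 0.048), PTGS2 (3.17, adjusted p = 0.012) and NFKBIZ (2.41, adjusted p = 0.019). It did not pass for the others of the list, CCL4 (adjusted p = 0.15) and CXCL8 (adjusted p = 0.12) among them. Over all rows it passed for 66 rows in the positive direction (0.479%) and for 5 in the negative one (0.0363%). The reporter of the PLB-985 cells cannot be told apart from the line here.

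**Figure D2:**
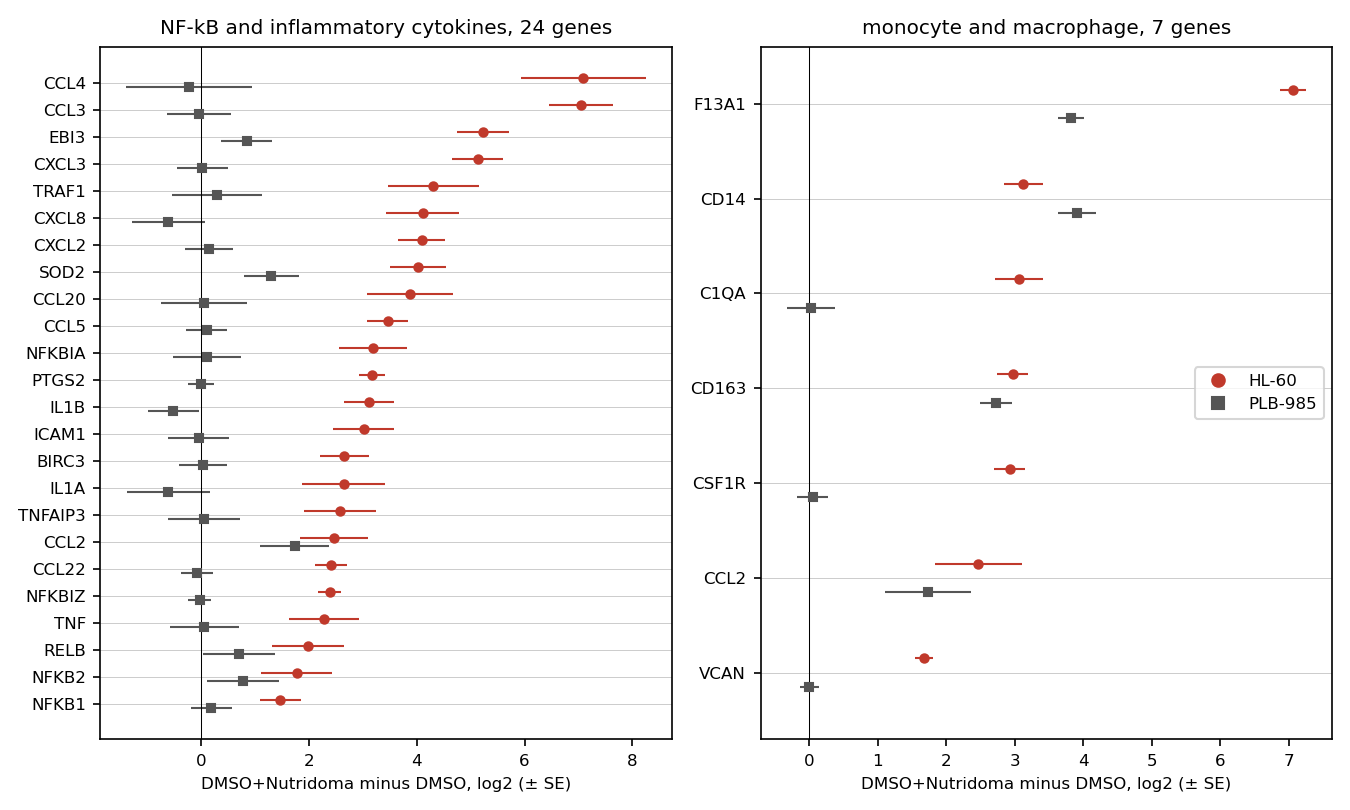
The horizontal axis is the log2 difference between DMSO+Nutridoma and DMSO with its SE, for the tested genes of NF-kB and inflammatory cytokines (left, 24 genes) and for 7 of the 8 tested genes of monocytes and macrophages (right), in HL-60 (red circles) and PLB-985 cells (dark squares); 2 replicates a group. The HL-60 points of the left panel run from 1.47 for NFKB1 to 7.09 for CCL4 while the PLB-985 points lie mostly near 0, whereas CD14, CD163 and F13A1 on the right are positive in both lines.

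Immediate early genes, which are transcribed within minutes of a signal, were higher in part, for 52.2% of those tested against 9.86% of all rows. Of 23 tested, 12 were higher and 11 did not pass, with a median of 1.53, and the count fell to 7 without DMSO replicate 2 and to 4 on the HL-60 libraries alone. Of the 12, EGR3 and NR4A3 met the filter only through the DMSO+Nutridoma libraries. EGR2, a zinc finger factor of macrophage differentiation, was at 1.17 and 1.31 normalized FPKM with DMSO and at 84.7 and 108 with DMSO+Nutridoma, a log2 difference of 5.43 (SE 0.20, adjusted p = 1.6e-05). EGR1 was at 2.39 and 3.23 against 101 and 64.9, a log2 difference of 4.43 (SE 0.51, adjusted p = 0.0023). The EGR1 window printed above holds its CArG boxes at −105 and −83 from the start. EGR3 was at 0.399 and 0.266 against 13.5 and 15.9 (3.56, adjusted p = 0.00038). The EGR genes passed with any 1 library left out, and in PLB-985 cells the log2 differences were −0.22, −0.25 and −0.19. The lines differed for EGR2 (5.65, SE 0.28, adjusted p = 0.0003), EGR3 (adjusted p = 0.0096) and EGR1 (adjusted p = 0.043).

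IER3, a stress-inducible survival gene, was at 3.34 and 9.27 with DMSO and at 143 and 269.7 with DMSO+Nutridoma (4.89, adjusted p = 0.0016). DUSP1, a phosphatase that turns off MAP kinases, was at 0.326 and 0.54 against 15.7 and 6.05 (2.92, adjusted p = 0.0034), and DUSP2 at 0.956 and 2.38 against 15.3 and 38.6 (3.31, adjusted p = 0.003). FOSB, ATF3, KLF4, NR4A1, NR4A2 and NR4A3 were also higher. ATF3 lost the call without any 1 of 9 of the 12 libraries, NR4A1 without 8, FOSB without 4, KLF4 without 2 and NR4A3 without 1 (adjusted p = 0.051 to 0.27). The AP-1 genes of the same list did not all follow. FOS was at 21.1 and 21.1 against 54.8 and 24 (0.76, adjusted p = 0.15), JUN at 8.27 and 9.72 against 24.1 and 41.5 (1.71, adjusted p = 0.14) and JUNB at 44.7 and 52.8 against 176 and 74.6 (1.22, adjusted p = 0.099). Of 9 tested cytoskeletal targets of the serum response factor 4 were higher (ACTB, TAGLN2, TPM4 and ZYX, median of the list 0.54), with 0 passing in limma without any 1 of DMSO replicate 1, DMSO replicate 2 and DMSO+Nutridoma replicate 2, and with 1 or 2 without any 1 of the 6 PLB-985 libraries. None of the 4 was called without the replicate term. The 4 were 44.4% of those tested, against 9.86% of all rows.

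Monocyte and macrophage genes rose in both pairs. The list had 16 members, of which 8 were tested, and each of the 8 was higher, against 9.86% of all rows. The medians were 2.91 in pair 1 and 2.67 in pair 2. VCAN met the filter only through the DMSO+Nutridoma libraries. The other 8 members were below the filter, with MSR1 at 0 and MRC1 at 0 with DMSO and at 0.122 and 0.233 with DMSO+Nutridoma, so the calls do not cover the whole list. The summed level of the 16 genes was 433 and 582 with DMSO and 3159 and 3328 with DMSO+Nutridoma. With each of the 12 libraries left out in turn, 7 of the 8 passed every time, and on the HL-60 libraries alone 6 passed. CCL2 lost the call without any 1 of 8 of the 12 libraries (adjusted p = 0.051 to 0.2). CCL2 also stands in the NF-kB list.

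F13A1, the A chain of coagulation factor XIII and a marker of monocytes, was at 0.726 and 0.629 in undifferentiated cells, at 0.852 and 0.655 with DMSO and at 293 and 186 with DMSO+Nutridoma, a log2 difference of 7.07 (SE 0.19, adjusted p = 4.5e-06). The ratio of its levels was 344 in pair 1 and 284 in pair 2. The promoter window of F13A1 held none of the 5 motifs. CD14, the co-receptor for lipopolysaccharide, was at 44.5 and 55.2 with DMSO and at 518 and 376 with DMSO+Nutridoma, a log2 difference of 3.13 (SE 0.28, adjusted p = 0.00083). CSF1R was at 7.78 and 8.73 against 53.4 and 89.7, a log2 difference of 2.93 (SE 0.23, adjusted p = 0.00047). CD163, the hemoglobin scavenger receptor, was at 0.0775 and 0.0655 against 10 and 5.38 (2.97, adjusted p = 0.00043). C1QA, a chain of complement C1q, was at 0.376 and 0.0485 against 11.6 and 7 (3.06, adjusted p = 0.0023), while its partner C1QB stayed at or below 0.0431. Unlike the chemokines, F13A1, CD14, CD163 and C1QA were higher in replicate 1 than in replicate 2 of DMSO+Nutridoma, whereas CSF1R was higher in replicate 2.

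In PLB-985 cells CD14 (3.91, SE 0.28, adjusted p = 0.0011), CD163 (2.73, SE 0.23, adjusted p = 0.0021) and F13A1 (3.83, SE 0.19, adjusted p = 0.00017) were higher too. CSF1R there had a log2 difference of 0.05 (SE 0.23, adjusted p = 0.98). The difference between the lines passed for CSF1R (2.88, SE 0.32, adjusted p = 0.013), F13A1 (3.24, SE 0.27, adjusted p = 0.0041) and VCAN (adjusted p = 0.015) and did not for CD14 (adjusted p = 0.45) or CD163 (adjusted p = 0.78). The monocyte genes and the chemokines thus moved in the same libraries in HL-60 cells, and the part of monocyte-like cells in the chemokine result was not tested. Of 14 eosinophil, basophil and mast cell genes 5 were tested and of 12 lymphocyte genes 3, and none of these passed in limma (0 of the 5 and 0 of the 3 also at an unadjusted p under 0.05), too few genes to set against the 9.86% of all rows. The summed level was 62.9 and 45.8 with DMSO against 41 and 11.4 with DMSO+Nutridoma for the eosinophil list and 4.72 and 1.81 against 8.33 and 5.02 for the lymphocyte list. The 12 erythroid and megakaryocyte genes summed to 0.266 to 0.455 normalized FPKM and the 8 fibroblast and epithelial genes to 0.152 to 0.388 in the 4 libraries.

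Of 14 genes of antigen presentation 6 were tested, of which 3 were higher and 1 was lower. These were 50 and 16.7%, against 9.86 and 6.61% of all rows. CD74, the invariant chain of MHC class II, was at 0.0482 and 0.0596 with DMSO and at 6.47 and 3.27 with DMSO+Nutridoma (2.42, adjusted p = 0.00081). HLA-DRA was at 0.018 and 0.0236 against 1.99 and 2.18 (1.60, adjusted p = 0.00048), still a low level, and CD40, a co-stimulatory receptor, at 0.71 and 1.1 against 12.2 and 54.3 (3.83, adjusted p = 0.0034). These 3 met the filter only through the DMSO+Nutridoma libraries. Of the 3 that met it without them 0 were higher, and CD1D was lower, at 5.86 and 7.99 against 3.05 and 1.74. CD1D lost the call without DMSO replicate 2 or DMSO+Nutridoma replicate 2 (adjusted p = 0.052 to 0.13). Of 21 lysosomal genes 9 were higher (median 0.50), or 5 without DMSO replicate 2 and 2 on the HL-60 libraries alone. CTSB, a cysteine protease, was at 151 and 150.1 against 449 and 727 (1.92, adjusted p = 0.0011), CTSL at 2.34 and 2.21 against 10.4 and 17.4 (2.15, adjusted p = 0.0012) and CD68 at 59.2 and 60 against 165 and 154 (1.41, adjusted p = 0.00085). CD68 was also higher in PLB-985 cells (1.18, SE 0.13, adjusted p = 0.0064). The 9 lysosomal genes called higher were 42.9% of those tested, against 9.86% of all rows.

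Receptors, surface proteins and other genes of neutrophil maturation moved in both directions. FPR1 was at 1.24 and 2.22 normalized FPKM in undifferentiated cells, at 116 and 113 with DMSO and at 238 and 199 with DMSO+Nutridoma, a log2 difference of 0.92 (SE 0.25, adjusted p = 0.043). ITGAM was at 160.4 and 150.3 against 189 and 170.4 (0.21, SE 0.16, adjusted p = 0.41) and did not pass. Its partner chain ITGB2 was at 528 and 525 against 1004 and 1071 (0.98, adjusted p = 0.017). FPR1 lost the call without any 1 of 8 of the 12 libraries (adjusted p = 0.061 to 0.22). ITGB2 lost the call without DMSO replicate 1, DMSO replicate 2 or DMSO+Nutridoma replicate 2 (adjusted p = 0.082 to 0.13).

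The surface maturation list also holds enzymes that are not surface proteins, such as NAMPT and PADI4. Of its 18 tested genes 6 were higher and 5 lower (33.3 and 27.8%, against 9.86 and 6.61% of all rows). The median was 0.38 in pair 1 and −0.64 in pair 2. AQP9, a water and glycerol channel, was at 1.39 and 1.21 against 9.35 and 19.4 (2.66, adjusted p = 0.0036), and CSF2RB, the shared chain of the GM-CSF, IL-3 and IL-5 receptors, at 47.7 and 57.4 against 166 and 165 (1.64, adjusted p = 0.001). NAMPT was at 92.8 and 88.5 against 552 and 1955 (3.50, adjusted p = 0.0037). CSF3R, the receptor for G-CSF, went the other way, from 98.6 and 117 to 50.4 and 24 (−1.59, adjusted p = 0.013). PADI4, the enzyme that citrullinates histones in neutrophils, was at 5.03 and 4.41 in undifferentiated cells, at 332 and 338 with DMSO and at 98.1 and 17.3 with DMSO+Nutridoma, a log2 difference of −2.98 (SE 0.61, adjusted p = 0.019). VNN2, a pantetheinase on the neutrophil surface, was at 36 and 41.5 against 11.1 and 4.49 (−2.28, adjusted p = 0.026). FCGR3B, the neutrophil Fc receptor that shares most of its sequence with FCGR3A, was at 1.71 and 1.9 against 0.395 and 0.0562 (−1.21, adjusted p = 0.019). NAMPT lost the call without DMSO replicate 2 (adjusted p = 0.051). CSF3R lost the call without DMSO replicate 2 or DMSO+Nutridoma replicate 2 (adjusted p = 0.074 to 0.12). PADI4 lost the call without DMSO replicate 1 or DMSO replicate 2 (adjusted p = 0.068 to 0.15). VNN2 and FCGR3B lost the call without DMSO replicate 1, DMSO replicate 2 or DMSO+Nutridoma replicate 2 (adjusted p = 0.075 to 0.17). In each of the 5 lower genes DMSO+Nutridoma replicate 2 was the lowest of the 4 libraries, and without it 1 of the 5 passed. Without DMSO replicate 1 the list had 3 higher and 1 lower, without DMSO replicate 2 it had 2 and 0, and without DMSO+Nutridoma replicate 2 it had 3 and 1, with AQP9 and CSF2RB passing in every fit.

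The chemoattractant receptors also moved in both directions, with 4 of 15 higher (FPR1, C3AR1, CCR1 and PTAFR) and 3 lower (CXCR4, CCR3 and LTB4R2). These were 26.7 and 20%, against 9.86 and 6.61% of all rows. The median of the list was −0.75, with −0.18 in pair 1 and −1.24 in pair 2. At an unadjusted p under 0.05 in limma 5 were higher and 8 lower. With a filter of 5 normalized FPKM the median over 12 genes was 0.07. CXCR4, which retains neutrophils in bone marrow, was at 76 and 68.5 with DMSO and at 25.7 and 7.13 with DMSO+Nutridoma, a log2 difference of −2.31 (SE 0.41, adjusted p = 0.012). CCR1, a receptor of CCL3, was at 18.3 and 20.3 against 74 and 75.1 (1.90, adjusted p = 0.0091), and C3AR1, the receptor for complement C3a, at 5.92 and 5.14 against 45.9 and 103 (3.42, adjusted p = 0.013). CXCR2, the receptor for CXCL2, CXCL3 and CXCL8, was at 22 and 20.4 against 11.7 and 0.733 and did not pass (−2.24, SE 0.74, adjusted p = 0.076). The log2 difference of CXCR2 was −0.86 in pair 1 and −3.63 in pair 2. CXCR4 lost the call without DMSO replicate 1 or DMSO replicate 2 (adjusted p = 0.056 to 0.11). CCR1 and C3AR1 lost the call without DMSO replicate 1, DMSO replicate 2 or DMSO+Nutridoma replicate 2 (adjusted p = 0.06 to 0.12). Without DMSO replicate 1, DMSO replicate 2 or DMSO+Nutridoma replicate 2 the higher genes numbered 0, 0 and 1. The lower genes numbered 1 without DMSO replicate 1, 0 without DMSO replicate 2 and 7 without DMSO+Nutridoma replicate 1.

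**Figure D3:**
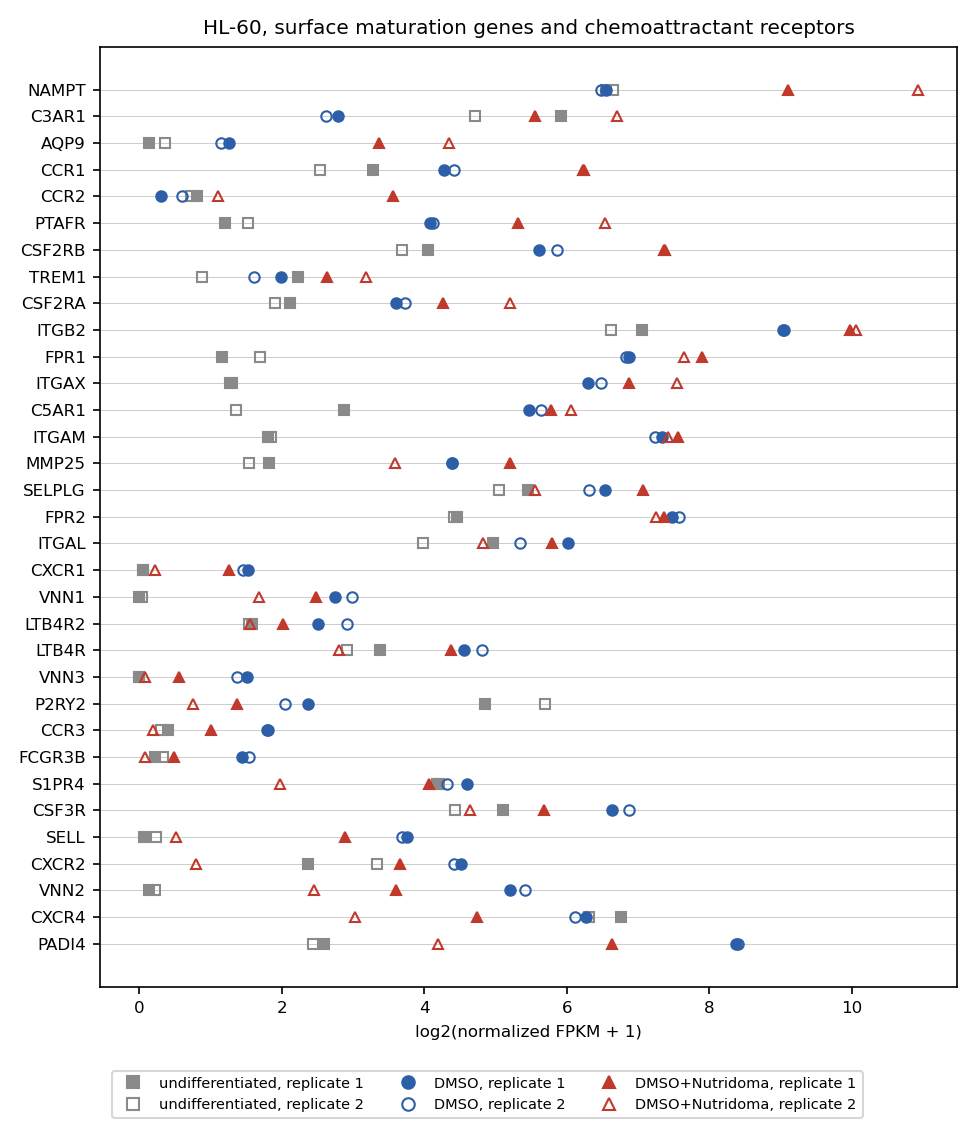
Each row is a tested surface maturation gene or chemoattractant receptor and the horizontal axis is log2(normalized FPKM + 1); squares are undifferentiated HL-60 cells, circles DMSO and triangles DMSO+Nutridoma, filled for replicate 1 and open for replicate 2. NAMPT, C3AR1 and AQP9 at the top have both triangles to the right of both circles, and PADI4, CXCR4 and VNN2 at the bottom have both to the left, with the open triangle the farthest.

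Granule genes were called about as often as all rows. Of 16 azurophil granule genes CTSC and CD63 were higher (12.5% against 9.86% of all rows), AZU1 was lower (6.25% against 6.61%), and 13 did not pass. AZU1 lost the call without any 1 of 10 of the 12 libraries, CD63 without 7 and CTSC without 3 (adjusted p = 0.056 to 0.24), and 0 of the 16 passed in limma without any 1 of DMSO replicate 1, DMSO replicate 2 and DMSO+Nutridoma replicate 2. MPO, the peroxidase, was at 165 and 64.4 against 196 and 15.7 (−0.86, adjusted p = 0.36). Of 7 genes of the later granules MMP9 was higher, CAMP was lower and 5 did not pass, and CAMP lost the call without any 1 of 4 libraries (adjusted p = 0.051 to 0.17). MMP9, the gelatinase of the tertiary granules and also a product of macrophages, was at 9.83 and 11.8 with DMSO and at 158 and 242 with DMSO+Nutridoma, a log2 difference of 4.06 (SE 0.22, adjusted p = 9.2e-05), against 0.45 (SE 0.22, adjusted p = 0.45) in the PLB-985 line, and the lines differed (3.61, SE 0.31, adjusted p = 0.0043). Of 7 NADPH oxidase genes 3 were higher (42.9%, against 9.86% of all rows), CYBB and RAC1 among them. CYBB, the catalytic subunit, was at 79.5 and 74.9 against 173 and 227 (1.35, adjusted p = 0.019), but 0 of the 7 passed in limma without any 1 of DMSO replicate 1, DMSO replicate 2 and DMSO+Nutridoma replicate 2. CYBB lost the call without DMSO replicate 1, DMSO replicate 2 or DMSO+Nutridoma replicate 2 (adjusted p = 0.089 to 0.13). S100A10, which with annexin A2 binds plasminogen, was at 3.37 and 4.99 against 33.3 and 52.9 (3.07, adjusted p = 0.0069). S100A10 lost the call without DMSO replicate 2 (adjusted p = 0.083).

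Genes of cytokine signaling through STAT proteins rose in part, 7 of 16 higher and CCND2 lower. These were 43.75 and 6.25%, against 9.86 and 6.61% of all rows. SOCS3, the feedback inhibitor of these receptors, was at 0.0618 and 0.0991 with DMSO and at 28.1 and 9.81 with DMSO+Nutridoma, a log2 difference of 4.04 (SE 0.48, adjusted p = 0.0027), with replicate 1 the higher. PIM1, a survival kinase, was at 11.9 and 13.2 against 43.2 and 50.8 (1.82, adjusted p = 0.02). CCND2, cyclin D2, was at 5.1 and 6.52 against 2.48 and 1.42 (−1.22, adjusted p = 0.0078). PIM1 lost the call without DMSO replicate 1, DMSO replicate 2 or DMSO+Nutridoma replicate 2 (adjusted p = 0.1 to 0.13). CCND2 lost the call without DMSO replicate 2 (adjusted p = 0.09). Of the 7, SOCS3 passed with any 1 library left out. The count was 3 without the replicate term, 1 without DMSO replicate 1, 2 without DMSO replicate 2 or DMSO+Nutridoma replicate 2, 3 without either PLB-985 DMSO library and 4 without either undifferentiated PLB-985 library. STAT elements were in 2 of the 12 windows of the list.

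Interferon response genes did not move together. Of 21 tested 5 were higher and 2 lower (23.8 and 9.52%, against 9.86 and 6.61% of all rows). The median was 0.01, and the counts were 3 and 0 without the replicate term. The higher ones were led by the IFITM genes, membrane proteins that restrict virus entry. IFITM1 was at 5.53 and 3.02 with DMSO and at 67.9 and 41.8 with DMSO+Nutridoma (3.41, adjusted p = 0.0016), IFITM2 at 136 and 136 against 779 and 455 (2.12, adjusted p = 0.00093) and IFITM3 at 26.3 and 10.9 against 105 and 26.8 (1.59, adjusted p = 0.0037). These paralogs are close in sequence and may share reads. They rose in PLB-985 cells as well, with log2 differences of 4.89 (SE 0.36, adjusted p = 0.0011), 2.90 (SE 0.20, adjusted p = 0.0011) and 2.73 (SE 0.21, adjusted p = 0.0012). ISG15, a ubiquitin-like product of interferon signaling, went the other way, from 5.13 and 5.83 to 3.85 and 2.25 (−0.70, adjusted p = 0.047). ISG15 lost the call without any 1 of 11 of the 12 libraries (adjusted p = 0.055 to 0.31). The interferon element was in 8 of the 15 windows of the list, against 3.65% of all windows.

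Glucocorticoid response genes were higher for 5 of 9 (55.6%, against 9.86% of all rows). FKBP5, a chaperone of the glucocorticoid receptor that the receptor induces, was at 4.17 and 2.97 with DMSO and at 19.8 and 60.9 with DMSO+Nutridoma (2.99, adjusted p = 0.0036), and SGK1, a kinase of ion transport, at 72.7 and 73.4 against 218 and 238 (1.63, adjusted p = 0.0035). FKBP5, SGK1, CD163 and DUSP1 passed with any 1 library left out, and CD163 and DUSP1 also stand in the lists above. Genes of iron handling were higher for 5 of 11 (45.5%, against 9.86% of all rows). STEAP4, a metalloreductase, was at 35.7 and 48.9 against 205 and 338 (2.63, adjusted p = 0.0011) and rose in PLB-985 cells too (3.57, SE 0.26, adjusted p = 0.0011). TFRC, the transferrin receptor, was at 17.5 and 13.4 against 49.9 and 59.9 (1.77, adjusted p = 0.014), and FTH1, the ferritin heavy chain, which has many processed copies in the genome, at 658 and 1106 against 2863 and 14622 (2.92, adjusted p = 0.0076). TFRC lost the call without DMSO replicate 1, DMSO replicate 2 or DMSO+Nutridoma replicate 2 (adjusted p = 0.064 to 0.13). FTH1 lost the call without DMSO replicate 2 (adjusted p = 0.081). The iron count was 3 without DMSO replicate 1, 2 without DMSO replicate 2 and 8 without DMSO+Nutridoma replicate 1.

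Genes of fatty acid synthesis were higher for 23.1% of those tested and cholesterol genes for 16.7%, against 9.86% of all rows. Of 24 genes of cholesterol synthesis and uptake, 4 were higher, with a median of 0.75. The count was 9 on the day-6 libraries of both lines, 1 without the replicate term and 0 on the HL-60 libraries alone. SQLE, squalene epoxidase, was at 3.71 and 2.43 with DMSO and at 14.7 and 27.1 with DMSO+Nutridoma (2.38, adjusted p = 0.026). CYP51A1 and SC5D also passed, a call lost without any 1 of 8 of the 12 libraries for SC5D and without DMSO replicate 2 for CYP51A1 (adjusted p = 0.05 to 0.24). With libraries left out the count was 1 without DMSO replicate 1 or DMSO+Nutridoma replicate 2, 0 without DMSO replicate 2, 2 without DMSO+Nutridoma replicate 1 and 7 without either undifferentiated PLB-985 library. Fatty acid synthesis had 3 of 13 higher (ELOVL1, LPIN1 and ME1) with a median of 0.88, or 6 on the day-6 libraries of both lines, 0 without the replicate term, 0 without either DMSO library and 1 without DMSO+Nutridoma replicate 2, and ABCA1, the cholesterol exporter, was at 0.315 and 0.41 against 3.76 and 2.95 (1.67, adjusted p = 0.014). SQLE and ABCA1 lost the call without DMSO replicate 1, DMSO replicate 2 or DMSO+Nutridoma replicate 2 (adjusted p = 0.061 to 0.2).

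MYC was higher, while most genes of proliferation did not pass (3.33% lower, against 6.61% of all rows). MYC, which falls when the cells differentiate, was at 404 and 426 normalized FPKM in undifferentiated cells, at 9.91 and 7.31 with DMSO and at 30.6 and 20 with DMSO+Nutridoma, a log2 difference of 1.44 (SE 0.26, adjusted p = 0.012), and in PLB-985 cells it had one of 1.62 (SE 0.26, adjusted p = 0.032). Of 24 genes of MYC and ribosome biogenesis 10 were higher (41.7%, against 9.86% of all rows), with a median of 0.58. Only 3 passed on the FPKM before scaling and 2 without the replicate term. The count was 0 in limma without either DMSO library, 3 without DMSO+Nutridoma replicate 2 and 6 without any 1 PLB-985 DMSO or undifferentiated library. Of 30 proliferation genes 0 were higher in limma (0 also at an unadjusted p under 0.05). MCM2, a replication helicase, was lower, at 11.2 and 6.86 against 6.33 and 2.94 (−0.87, adjusted p = 0.016). The median of the proliferation list was −0.54, with −0.46 in pair 1 and −0.63 in pair 2, and 7 were lower at an unadjusted p under 0.05. On the day-6 libraries of both lines 7 were called lower, where 751 of all rows were. In PLB-985 cells the median was 0.38, with 2 higher and 0 lower at an unadjusted p under 0.05. MYC and MCM2 lost the call without DMSO replicate 1, DMSO replicate 2 or DMSO+Nutridoma replicate 2 (adjusted p = 0.062 to 0.1). MKI67 was at 6.16 and 2.7 against 4.17 and 1.52 (−0.51, adjusted p = 0.32). CDKN1A, the p21 inhibitor of cyclin-dependent kinases, was at 2.06 and 2.06 against 44.1 and 127, a log2 difference of 4.63 (SE 0.46, adjusted p = 0.0012), while 3 other p53 targets or death genes, BAX, BMF and SESN1, were lower, or 1 without the replicate term. Of the 18 genes of that list 4 were higher, or 2 without either DMSO library and 7 without either undifferentiated HL-60 library, and the 3 lower ones were 0 without either DMSO library and 1 without DMSO+Nutridoma replicate 2 or either PLB-985 DMSO library. In the list of p53 and cell death 22.2% were higher and 16.7% lower, against 9.86 and 6.61% of all rows. Limma made 0 calls among the 13 mitochondrially encoded genes, and 0 of these were at an unadjusted p under 0.05.

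**Figure D4:**
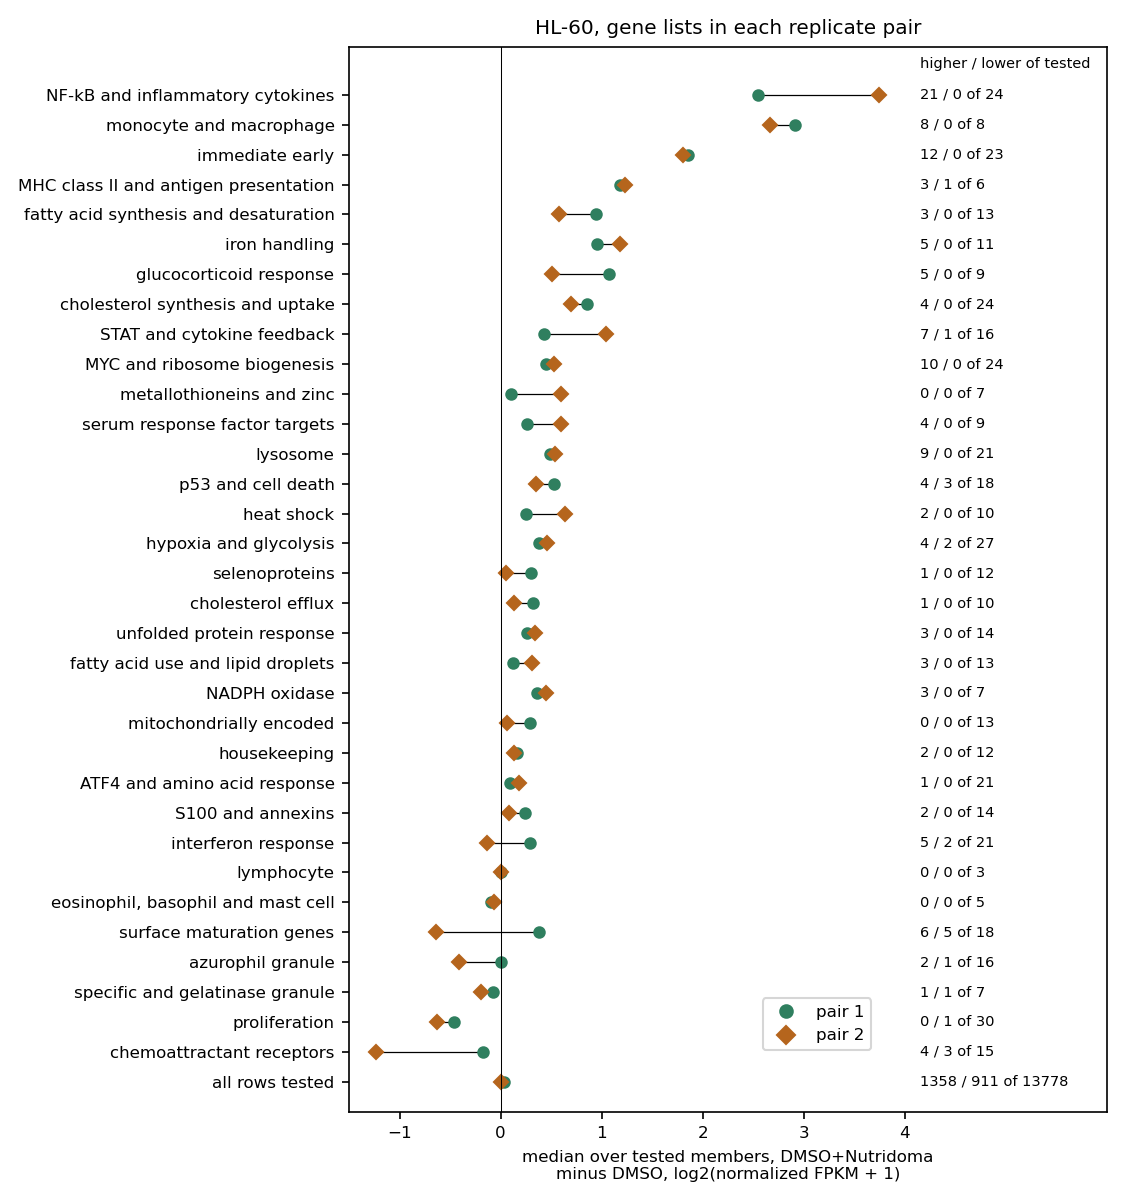
For each gene list with at least 3 tested members, the horizontal axis gives the median over the tested members of the difference between DMSO+Nutridoma and DMSO on log2(normalized FPKM + 1), in pair 1 (green circle) and pair 2 (brown diamond), with the numbers called higher and lower of those tested at the right. NF-kB and cytokine genes (2.55 and 3.75) and monocyte genes (2.91 and 2.67) lie far to the right of all rows (0.03 and 0), and the surface maturation genes lie on opposite sides of 0 in the pairs (0.38 and −0.64).

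The largest increases also held genes outside these lists. SLAMF8, a receptor of activated macrophages, was at 0 and 0.149 with DMSO and at 24.7 and 59.9 with DMSO+Nutridoma, a log2 difference of 5.21 (SE 0.34, adjusted p = 0.00024). PXN, the focal adhesion protein paxillin, was at 0.92 and 1.04 against 37.5 and 33.7, a log2 difference of 4.21 (SE 0.36, adjusted p = 0.00065), and was called in PLB-985 cells as well, at 2.69 (SE 0.36, adjusted p = 0.015). SLC1A3, a glutamate transporter, was at 0.286 and 0.563 against 14.7 and 40.9 (4.18, adjusted p = 0.00045). The groups of these genes did not overlap, which their choice as largest increases favors. Non-overlap in the higher direction held for 26.4% of all rows. CCL1, a chemokine, was at 0.134 and 1.11 against 10.5 and 92.4 (4.40, adjusted p = 0.011) and TRAF1, an adaptor of TNF receptors from the NF-kB list, at 1.25 and 1.71 against 11.8 and 187 (4.31, adjusted p = 0.015), both with most of the rise in replicate 2. Of the 15 largest increases, 11 passed with any 1 library left out. CCL4, CCL4L2, CCL1 and TRAF1 did not. CCL4L2 lost the call without DMSO replicate 1, DMSO replicate 2 or DMSO+Nutridoma replicate 2 (adjusted p = 0.088 to 0.13). CCL1 and TRAF1 lost the call without DMSO replicate 1 or DMSO replicate 2 (adjusted p = 0.06 to 0.14).

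**Figure D5:**
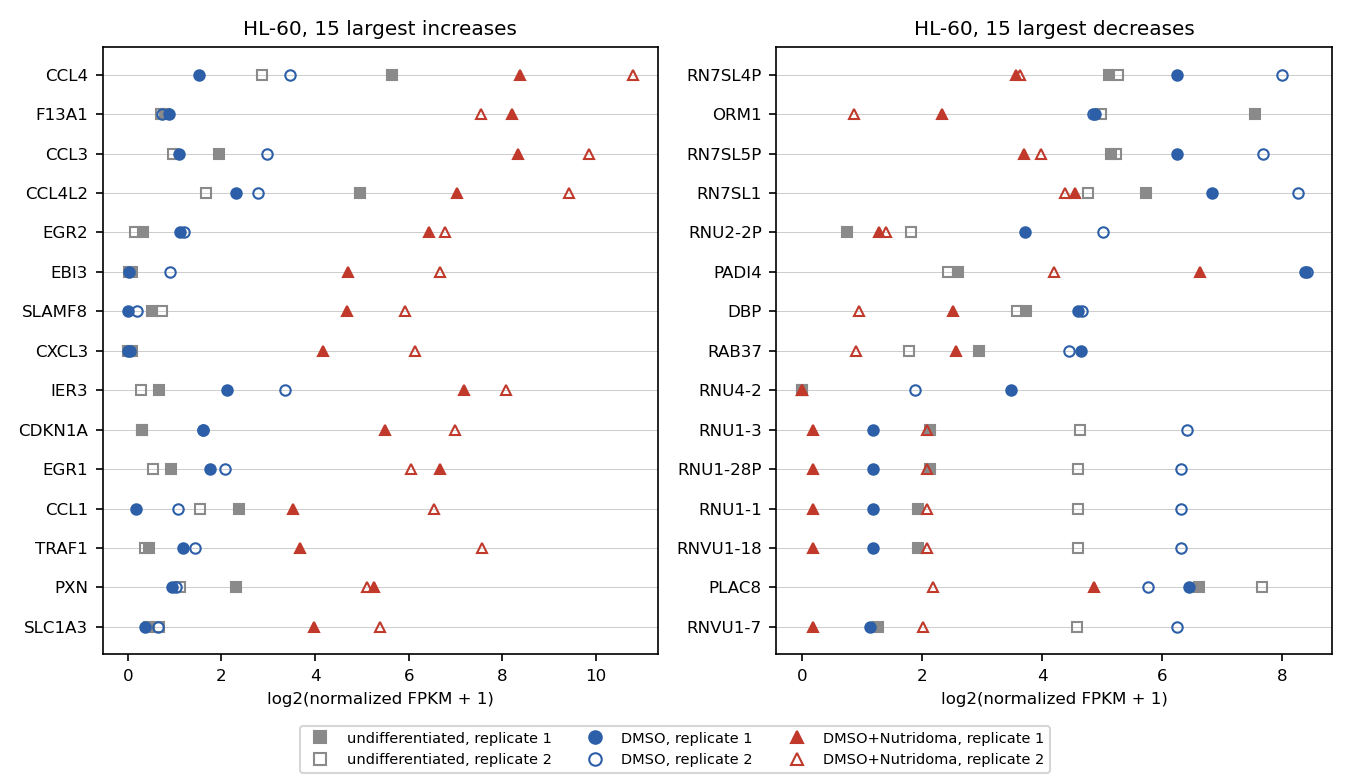
The 15 largest increases (left) and the 15 largest decreases (right) called with limma in HL-60 cells, with log2(normalized FPKM + 1) of each library on the horizontal axis; squares are undifferentiated cells, circles DMSO and triangles DMSO+Nutridoma, filled for replicate 1 and open for replicate 2. On the left both triangles lie to the right of both circles in every row, which the choice of rows favors. On the right the RNU1 and RNVU1 rows have circles far apart, with the open triangle to the right of the filled circle.

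Many of the largest decreases were copies of structural RNAs. RN7SL4P, a copy of the signal recognition particle RNA, was at 74.6 and 252 with DMSO and at 10.8 and 11.3 with DMSO+Nutridoma, a log2 difference of −3.52 (SE 0.38, adjusted p = 0.0018). RNU2-2P, of the U2 family, was at 12.1 and 31.2 against 1.45 and 1.64 (−3.01, adjusted p = 0.0046) and was lower in the PLB-985 line too (−2.35, SE 0.42, adjusted p = 0.048). RNU4-2 was at 10.2 and 2.69 with DMSO and was listed at 0 in both DMSO+Nutridoma libraries. The U1 copies RNU1-1, RNU1-3, RNU1-28P, RNVU1-7 and RNVU1-18 had nearly the same values, with RNU1-1 at 1.28 and 78 against 0.144 and 3.25. The groups of these U1 copies overlapped, since DMSO replicate 1 lay below DMSO+Nutridoma replicate 2. These copies are near-identical, so the value of each is uncertain, and the libraries were enriched for polyadenylated RNA, which these transcripts mostly lack. RNU2-2P lost the call without DMSO replicate 2 (adjusted p = 0.055). RNU1-1 lost the call without any 1 of 10 of the 12 libraries (adjusted p = 0.054 to 0.25). Of the rows annotated as small nuclear RNA, 10 were lower, 0 higher and 44 did not pass. The 10 include the near-identical U1 copies, so they are not separate results. Of the long noncoding RNA rows 91 were lower, 31 higher and 711 did not pass. Of the protein-coding rows 1257 were higher, 728 lower and 8883 did not pass. Over all 13778 rows 9.86% were higher and 6.61% lower.

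The protein-coding genes among them were ORM1, PADI4, DBP, RAB37 and PLAC8. ORM1, the acute phase protein orosomucoid, which has the close copy ORM2, was at 28.5 and 27.7 with DMSO and at 4.07 and 0.818 with DMSO+Nutridoma, a log2 difference of −3.26 (SE 0.54, adjusted p = 0.0092). DBP, a clock-controlled transcription factor, was at 23.1 and 24.4 against 4.72 and 0.933, a log2 difference of −2.89 (SE 0.33, adjusted p = 0.0023). RAB37, a GTPase of secretory granules, was at 24.2 and 20.9 against 4.9 and 0.872 (−2.82, adjusted p = 0.004). In all of these DMSO+Nutridoma replicate 2 was the lowest library. PLAC8 was at 86.6 and 53.6 against 28.3 and 3.52 (−2.59, adjusted p = 0.041). ORM1 lost the call without DMSO replicate 2 or DMSO+Nutridoma replicate 2 (adjusted p = 0.064 to 0.095). RAB37 lost the call without DMSO replicate 2 (adjusted p = 0.056). PLAC8 lost the call without any 1 of 9 of the 12 libraries (adjusted p = 0.064 to 0.21). Of the 15 largest decreases DBP, RN7SL4P and RN7SL5P passed with any 1 library left out. Without DMSO replicate 2, 4 passed, and without DMSO+Nutridoma replicate 2, 8 passed.

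The genes that set the pairs farthest apart are given as a description, since they were picked by that difference. The difference was far larger in pair 2 for TRAF1, IRAK2 and TNFRSF4, genes of signaling by TNF family and toll-like receptors. It was also far larger in pair 2 for the chemokine CCL20, for TNFAIP6, and for SLC7A11 and OSGIN1, genes of the oxidative stress response. SLC7A11, the cystine transporter, was at 2.43 and 2.21 with DMSO and at 5.14 and 71.7 with DMSO+Nutridoma. OSGIN1 was at 2.19 and 1.91 against 3.28 and 35.6, and IRAK2, a kinase downstream of toll-like receptors, at 0.101 and 0.132 against 2.37 and 32.7. The log2 difference of SLC7A11 was 0.84 in pair 1 and 4.50 in pair 2 and that of OSGIN1 was 0.42 in pair 1 and 3.65 in pair 2. CDKN2B was at 5.26 and 4.17 against 4.69 and 35.5 and RAB7B at 3.05 and 2.78 against 3.86 and 35.8. In the other direction NFE2, a transcription factor of erythroid and myeloid cells, was at 40.6 and 43.1 against 39 and 2, and SELM, a selenoprotein of the endoplasmic reticulum now called SELENOM, at 0.291 and 2 against 32.9 and 1.89. MIR1307 was estimated at practically 0 in DMSO replicate 2, and the other rows with pair 2 below pair 1 were U1 copies.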

How the data were processed

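The libraries were made from polyadenylated RNA and sequenced as single-end reads. Per the labels and the study's methods, the authors made FASTQ files with bcl2fastq 2.17.1.14, aligned reads with STAR 2.4 to GRCh38.p5 and estimated FPKM with Cufflinks 2.2.1. The deposited FPKM table and the deposited log10 table were checked against each other: the log10 value is that of FPKM times 1 factor per library plus 0.0001. No read counts were used, so the depth per library is known only roughly and no counting interval is given.

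The log10 values were turned back to normalized FPKM and analysed as log2(normalized FPKM + 1) with limma 3.58.1 in R 4.3.3 (empirical Bayes with a variance trend, two-sided, Benjamini-Hochberg). The fit held the 6 groups with 2 replicates, the replicate number as a block and 13778 of 60707 rows, and left 5 residual degrees of freedom. The 2 libraries without a replicate were left out. The study reports that the experiment was repeated on 2 independent days, without tying the replicate numbers to them. Replicate differences of all pairs of groups correlated at 0.653 to 0.852 across rows, so the numbers were taken as pairs.

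The named genes are the 15 largest increases and the 15 largest decreases past the threshold in the same direction in both pairs, the 10 rows with the largest difference between the pairs in each direction (mean of 5 normalized FPKM or more, no value of 0), up to 5 genes in each direction past the threshold for the difference between the lines, FPR1 and ITGAM, and members of 36 gene lists. Rows needed an NCBI gene ID, and rows listed at 0 in a library and at 20 or more in its replicate were left out of the rankings. The members, lists and tests were chosen with earlier results of these data known. The alternatives were other scalings, pseudocounts, filters, sample sets, weights and left-out libraries. Gene types came from GENCODE 44 (56553 rows matched) and promoters from RefSeq. Scripts were tested on simulated data. Some listed genes are not reported here by name.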

Additional observations from a re-analysis of the deposited data

Results flagged for a closer look

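The effect of DMSO+Nutridoma differed between HL-60 and PLB-985 cells, by the interaction term of the limma fit, for 66 rows in the positive and 5 in the negative direction. The largest that met the rule for named genes were 9 genes. The difference (HL-60 minus PLB-985, log2) was positive for CCL3 (7.08, adjusted p = 0.016), EGR2 (5.65, adjusted p = 0.0003), CXCL3 (5.10, adjusted p = 0.025), IER3 (5.02, adjusted p = 0.034) and SLAMF8 (4.82, adjusted p = 0.01). It was negative for CST7 (−3.59, adjusted p = 0.034), MCTP2 (−1.86, adjusted p = 0.037), FRAT2 (−1.47, adjusted p = 0.019) and IGFBP2 (−1.37, adjusted p = 0.013). MCTP2 was higher in both lines (1.99 in HL-60 and 3.84 in PLB-985 cells). CST7 was higher in PLB-985 cells (3.12) and did not pass in HL-60 cells (−0.46). FRAT2 was lower in HL-60 cells (−1.10) and did not pass in PLB-985 cells (0.36). IGFBP2 was lower in HL-60 cells (−0.67) and higher in PLB-985 cells (0.70). Its levels in HL-60 cells were low, at 2.6 and 1.15 normalized FPKM with DMSO and at 1.34 and 0.304 with DMSO+Nutridoma. In PLB-985 cells it was at 6.85 and 3.29 against 11.7 and 6.03, and the groups overlapped in both lines.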

How the results depend on the processing

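With 2 replicates a group and no read counts, the calls rest on a spread shared over 12 libraries, and most counts moved when 1 library of the compared groups was left out. Leave-one-out counts ran from 218 to 1709 for genes higher and from 56 to 1470 for genes lower in HL-60 cells. They ran from 9 to 601 and from 1 to 457 for the difference between the lines (positive and negative), and from 24 to 259 and from 5 to 75 for genes higher and lower in PLB-985 cells. A lone sample left in a group was assumed to vary like the other groups. The HL-60 counts were 96 higher and 5 lower on the HL-60 libraries alone, where the NF-kB list had 3 calls and the monocyte list 6. On the HL-60 day-6 libraries alone limma, with 1 residual degree of freedom, called 0 and 0, with 2717 rows at an unadjusted p under 0.05 in either direction.

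Without the replicate block the counts were 575 and 264 in HL-60 cells, 60 and 10 in PLB-985 cells and 33 and 2 for the difference between the lines, and of 503 results on single genes 425 stayed on their side of the threshold and 78 lost the call. Array weights gave 545 lower in HL-60 cells, 762 and 441 in PLB-985 cells and 111 and 10 between the lines. With no filter there were 557 lower in HL-60 cells, 80 higher in PLB-985 cells and 106 and 28 between the lines. Between the lines a filter of 5 gave 23 and 3, a pseudocount of 0.1 gave 9 and 2, and the day-6 libraries gave 30 positive. Genes at least 2-fold lower in both pairs numbered 275 on FPKM before scaling, 375 with a pseudocount of 0.1 and 246 with 0.5. Those in opposite directions numbered 46 with a pseudocount of 0.1, 10 with a filter of 5 and 13 with NCBI gene IDs only. At 3-fold the counts were 199 higher, 33 lower and 9 opposite. With a pseudocount of 0.1 the monocyte list had a higher median (3.82) than the NF-kB list (3.19), as in pair 1. The causes of these shifts were not tested. Scaling moved the median of all rows by less than 0.1. No result turned direction past the threshold under any alternative run.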

Other observations

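The selenoprotein genes TXNRD1 and GPX4, chosen after their values were seen, followed the replicate number in HL-60 cells. TXNRD1, thioredoxin reductase, was at 4916 and 278 normalized FPKM in undifferentiated cells, at 3485 and 153 with DMSO and at 3839 and 688 with DMSO+Nutridoma (replicate 1 first). GPX4, which reduces lipid peroxides, was at 1572 and 199, at 2153 and 352 and at 2845 and 479 in the same groups. In each group replicate 1 was several-fold the higher, and neither gene passed between the media (1.15, adjusted p = 0.12, and 0.42, adjusted p = 0.14, limma).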
